A study of Homo sapiens with 8 samples.

Results

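ATF4 and 9 of its reported target genes were examined in human HCT116 cells, an established colorectal cancer line, that lose the polyadenylation factor NUDT21 while pre-mRNA cleavage is inhibited. The genes were taken by name, with earlier results of these data known: ATF4, DDIT3, TRIB3, CHAC1, ASNS, PSAT1, PHGDH, SESN2, DDIT4 and CEBPB. These are 10 of 78932 gene identifiers in the deposited tables, and 8 of them were among the 12618 genes with enough counts to be tested. ASNS and SESN2 were not.

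The cells carry a dTAG degradation tag on NUDT21, a subunit of cleavage factor Im. dTAGV1 marks tagged proteins for destruction, and DMSO is the solvent control. JTE-607 blocks CPSF73 (CPSF3), the endonuclease of the cleavage and polyadenylation machinery. Both groups received JTE-607: 4 libraries came from cells with DMSO+JTE-607 and 4 from cells with dTAGV1+JTE-607. All groups therefore share the tag, the cell line and the cleavage inhibitor, and cells without JTE-607 were not analysed here. Doses, times and whether the line is a single clone are not given in the sources used here. The labels do not say that replicates came from separate cultures, so p-values measure the spread between these libraries, which may be technical.

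In the integrated stress response, several kinases phosphorylate the translation initiation factor eIF2 on its alpha subunit. General translation falls, while the ATF4 mRNA, whose upstream open reading frames otherwise restrain it, is translated more. ATF4 protein then binds DNA with partners of the C/EBP family and switches on genes for amino acid synthesis, amino acid transport, redox balance and, in lasting stress, cell death. The RNA level of ATF4 is thus one layer of the pathway, and neither protein nor translation was measured in these libraries.

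ATF4 and C/EBP dimers are known to bind a composite element whose core can be written as TGATGNAA. The RefSeq promoter table (GRCh38.p14; 250 bases before to 50 after each gene start) held all 10 genes. Both strands of each window were searched for these letters. They occur in the windows of 2 of the 10 genes, ASNS and CHAC1, and in 4.46% of the 27305 genes in that table. The stretches around both matches are shown because CHAC1 had the largest fold change of the 8 tested genes and ASNS could hardly be counted. Capitals mark the match, and each stretch runs 5′ to 3′ on the strand of its gene.
ASNS, chr7:97872429-97872516, minus strand: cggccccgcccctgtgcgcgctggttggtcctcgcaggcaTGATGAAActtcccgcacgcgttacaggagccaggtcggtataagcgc
CHAC1, chr15:40953222-40953309, plus strand: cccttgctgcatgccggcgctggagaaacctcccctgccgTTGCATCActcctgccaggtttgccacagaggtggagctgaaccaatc
The ASNS match begins 68 bases before the RefSeq start on which its window is built. The CHAC1 match begins 209 bases before its RefSeq start and lies in the reverse orientation, where it reads TGATGCAA. GENCODE 29, the source of the gene coordinates given with each gene, starts both genes further upstream, so that both matches lie inside those gene spans. A match is a description of the letters, and binding was not measured. For the other 8 genes the result says only that these letters are not in the windows searched.

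The libraries held 3447842 to 4291256 reads counted to genes on the sense strand. NUDT21 itself went from 32.2 to 8.25 CPM (counts per 1000000 counts in the library, scaled by the trimmed mean of M values) upon dTAGV1, or -1.95 in log2 fold change (SE 0.18, edgeR adjusted p = 1.36e-09). dTAGV1 acts on the tagged protein, which was not measured. Of 8 epithelial markers, EPCAM, CDH1, KRT8, KRT18, KRT19 and CDX2 were tested, while VIL1 and CEACAM5 had at most 3 counts in any library. EPCAM rose and KRT18 and KRT19 fell, with log2 fold changes of 0.28, -0.60 and -0.65, and CDH1, KRT8 and CDX2 did not pass. The 8 summed to 1575 to 1831 CPM with DMSO and 1253 to 1353 CPM with dTAGV1. Of 8 markers of blood, endothelial, fibroblast and muscle cells, 6 had too few counts to test. All 8 together summed to 26.3 to 34.95 CPM with DMSO and 17.8 to 26.8 CPM with dTAGV1, with COL3A1 at 0 throughout. Mitochondrial genes took 7.98% to 8.56% of gene counts with DMSO and 9.22% to 10.4% with dTAGV1. Reads in no annotated exon on the same strand were 30.1% to 33.7% of uniquely mapped reads with DMSO and 35.9% to 37.4% with dTAGV1. They include reads that lie opposite to an exon. These shares move with the treatment, and their part in the results below was not tested. In bulk libraries, a change in the share of cells and a change in RNA per cell cannot be told apart. These libraries read transcript ends, and the treatment acts on a factor that helps to form those ends. Genes said to rise or fall below did so in such counts. Whether a change in where transcripts end altered the counts of any gene was not tested.

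Upon dTAGV1, 5 of the 10 genes rose and none fell (quasi-likelihood F test of edgeR, p adjusted by Benjamini-Hochberg over all tested genes, threshold 0.05). Those 5 were DDIT3, CHAC1, DDIT4, PSAT1 and CEBPB. ATF4, TRIB3 and PHGDH did not pass the threshold, and ASNS and SESN2 were not tested. Without dTAGV1 replicate 2, ATF4 and TRIB3 passed as well, which made 7. The treatment changed much of the transcriptome: 57.9% of all tested genes passed this threshold, 29.4% as higher and 28.5% as lower. Of the genes that passed, 50.8% were higher, and 43.8% with libraries scaled by size alone. Across the 8 tested genes the median was 0.46 in log2 fold change, against 0.01 across all tested genes. DDIT3, CHAC1 and DDIT4 lay far out in that distribution, above 96.0%, 96.8% and 95.6% of tested genes in log2 fold change. CEBPB and PSAT1 lay above 72.6% and 79.1% of them. Because the 10 genes were chosen with earlier results of these data known, these comparisons describe them and do not test the group.

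**Figure D1:**
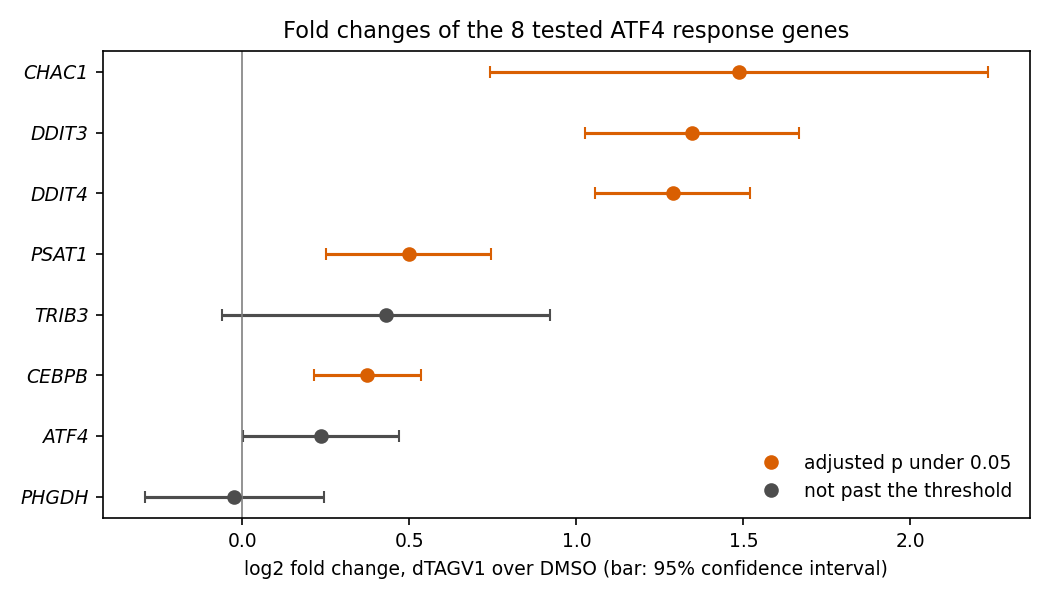
Log2 fold change, dTAGV1 over DMSO, of the 8 tested genes (horizontal axis), with 95% confidence intervals from the edgeR fit as bars. Orange points passed the adjusted p threshold and grey ones did not. CHAC1, DDIT3 and DDIT4 lie between 1.29 and 1.49, PSAT1 and CEBPB lie at 0.50 and 0.37, and the interval of PHGDH is centred near 0.

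ATF4 is the transcription factor that gives the response its name. It lies on GRCh38 chromosome 22 (39519695 to 39522685, plus strand; ENSG00000128272, protein-coding). Its level was 213, 219, 225 and 188 CPM in DMSO replicates 1 to 4, and 295, 191, 279 and 230 CPM in dTAGV1 replicates 1 to 4. Replicates 1, 3 and 4 stood above every DMSO library, whereas dTAGV1 replicate 2 lay within the DMSO range. The group means were 211 ± 16.3 and 249 ± 47.2 CPM (SD, n = 4 each). In log2 fold change this was 0.24, with a 95% confidence interval of 0.0008 to 0.47, and it missed the threshold after adjustment (edgeR adjusted p = 0.0796). That call changed with a single library and with the settings. Without dTAGV1 replicate 2 the value was 0.33 and passed (edgeR adjusted p = 0.00271), and without dTAGV1 replicate 1 it was 0.14. It also passed with no filter on low counts (0.21, edgeR adjusted p = 0.0302) and with the replicate number as a block (0.22, edgeR adjusted p = 0.0360). The 4 annotated processed copies ATF4P1 to ATF4P4 had at most 1 count in any library, but reads that fit a copy equally well were not counted to either.

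DDIT3 encodes CHOP, a C/EBP-family factor that ATF4 induces and that promotes cell death in prolonged stress. The gene is on chromosome 12 (57516588 to 57521737, minus strand; ENSG00000175197, protein-coding). It was at 16.9, 18.1, 20.8 and 17.3 CPM in DMSO replicates 1 to 4, and at 63.2, 36.0, 46.5 and 40.4 CPM in dTAGV1 replicates 1 to 4. The groups did not overlap, and the spread among dTAGV1 libraries was wide, with replicate 1 highest and replicate 2 lowest. DDIT3 rose 2.54-fold, or 1.35 in log2 fold change (SE 0.15, edgeR adjusted p = 9.89e-08). MARS1 and MBD6 overlap DDIT3 on the other strand, where 97 to 179 reads per library were counted against 62 to 223 on its own strand. With counts irrespective of strand, which drop the reads that fit genes on both strands, DDIT3 kept 19 to 77 reads per library and a log2 fold change of 1.47. Exons of AC022506.1 cover 8.03% of its exonic bases on the same strand, none of them in the last 500.

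CEBPB encodes a C/EBP factor that is both a target and a dimer partner of ATF4. It is on chromosome 20 (50190734 to 50192689, plus strand; ENSG00000172216, protein-coding). Its level was 135, 116, 123 and 125 CPM in DMSO replicates 1 to 4, and 173, 167, 159 and 148 CPM in dTAGV1 replicates 1 to 4. All 4 dTAGV1 libraries stood above all 4 DMSO libraries, with a similar relative spread in both groups. The rise was 1.30-fold, or 0.37 in log2 fold change (SE 0.08, edgeR adjusted p = 0.000218).

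TRIB3 encodes a pseudokinase induced by ATF4 and CHOP that restrains ATF4 and AKT. It is on chromosome 20 (362835 to 397559, plus strand; ENSG00000101255, protein-coding). The DMSO libraries were close together at 23.5, 23.6, 20.0 and 21.3 CPM. The dTAGV1 libraries were at 47.3, 18.1, 28.0 and 25.8 CPM for replicates 1 to 4, so that replicate 1 was far above the DMSO range and replicate 2 below it. The log2 fold change was 0.43 with a 95% confidence interval of -0.06 to 0.92 and did not pass (edgeR adjusted p = 0.123). It was 0.11 without dTAGV1 replicate 1 (edgeR adjusted p = 0.554), and it passed at 0.59 without dTAGV1 replicate 2 (edgeR adjusted p = 0.00818) and at 0.41 with no filter on low counts (edgeR adjusted p = 0.0194).

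CHAC1 encodes a glutathione-degrading cyclotransferase, a target of the ATF4 and CHOP branch. It is on chromosome 15 (40952962 to 40956519, plus strand; ENSG00000128965, protein-coding), and its promoter stretch with the TTGCATCA match is printed above. Its level was 8.74, 6.27, 7.74 and 3.71 CPM in DMSO replicates 1 to 4, from 32, 26, 29 and 15 reads. In dTAGV1 replicates 1 to 4 it was 30.3, 11.2, 20.3 and 12.3 CPM, from 107, 37, 69 and 52 reads. The groups did not overlap, and dTAGV1 replicates 1 and 3 stood well above replicates 2 and 4. CHAC1 rose 2.80-fold, the largest fold change among the 8 tested genes and also the least precise, at 1.49 on the log2 scale (SE 0.34, edgeR adjusted p = 0.00236).

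DDIT4 encodes REDD1, an inhibitor of mTORC1 signalling that ATF4, p53, glucocorticoid and hypoxia signals can induce. It is on chromosome 10 (72273920 to 72276036, plus strand; ENSG00000168209, protein-coding). Its level was 26.5, 23.6, 27.5 and 35.1 CPM in DMSO replicates 1 to 4, and 69.4, 69.2, 67.2 and 69.8 CPM in dTAGV1 replicates 1 to 4. The dTAGV1 libraries were nearly identical, with a coefficient of variation of 1.70%, where DDIT3 had 25.6%, TRIB3 41.7% and CHAC1 47.8%. With DMSO the coefficient of DDIT4 was 17.4%. The genes differ in depth, with 228 to 295 reads per dTAGV1 library for DDIT4 and 37 to 107 for CHAC1. Counting noise was not separated from these spreads. DDIT4 rose 2.44-fold, or 1.29 in log2 fold change (SE 0.11, edgeR adjusted p = 5.93e-10). An antisense gene, DDIT4-AS1, overlaps it on the other strand.

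SESN2 encodes sestrin 2, a leucine sensor that lies upstream of mTORC1 and is induced by ATF4, p53 and NRF2. The gene is on chromosome 1 (28259527 to 28282491, plus strand; ENSG00000130766, protein-coding). It had 0, 0, 0 and 1 reads in DMSO replicates 1 to 4 and 1, 3, 2 and 0 reads in dTAGV1 replicates 1 to 4. All libraries were at or under 3 reads, so no fold change is given. GENCODE 29 lists no other gene over its exons on the same strand. The annotation behind the counts lists more genes than GENCODE 29, and whether one of them overlaps SESN2 was not tested. These counts give neither the level of SESN2 RNA nor a change in it.

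PHGDH, PSAT1 and ASNS stand for amino acid synthesis. PHGDH encodes the dehydrogenase of the first step of serine synthesis, and PSAT1 the aminotransferase of the step that follows. PSAT1 (chromosome 9, 78297143 to 78330093, plus strand; ENSG00000135069, protein-coding) was at 36.1, 37.9, 41.9 and 41.1 CPM in DMSO replicates 1 to 4, and at 62.1, 42.3, 64.5 and 52.7 CPM in dTAGV1 replicates 1 to 4. The groups did not overlap, but dTAGV1 replicate 2 was just above the highest DMSO library. PSAT1 rose 1.41-fold, or 0.50 in log2 fold change (SE 0.12, edgeR adjusted p = 0.000924).

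PHGDH (chromosome 1, 119648411 to 119744226, plus strand; ENSG00000092621, protein-coding) was at 49.5, 39.6, 37.1 and 33.9 CPM in DMSO replicates 1 to 4, and at 43.7, 36.6, 45.1 and 32.4 CPM in dTAGV1 replicates 1 to 4. The groups overlapped. Its log2 fold change was -0.02 with a 95% confidence interval of -0.29 to 0.24 (edgeR adjusted p = 0.890). The log2 ratio of PSAT1 to PHGDH reads went from -0.02 ± 0.33 to 0.48 ± 0.20 (SD, n = 4 each). This difference of 0.50 did not pass (2-sided exact permutation p = 0.0571, adjusted p = 0.0914 over 8 ratios).

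ASNS encodes asparagine synthetase and is a textbook ATF4 target. It is on chromosome 7 (97852118 to 97872542, minus strand; ENSG00000070669, protein-coding). It had 4, 0, 1 and 0 reads in DMSO replicates 1 to 4 and 9, 3, 2 and 1 reads in dTAGV1 replicates 1 to 4. AC079781.5, an overlapping gene that the tables also list, covers 44.6% of the exonic bases of ASNS on the same strand in GENCODE 29, and all of its last 500 exonic bases. Reads that fit both genes are counted to neither, and these libraries read transcript ends, so the counts do not give the level of ASNS RNA. AC079781.5 itself had 3 to 9 reads per library. Whether the overlap lowered the ASNS counts was not tested.

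**Figure D2:**
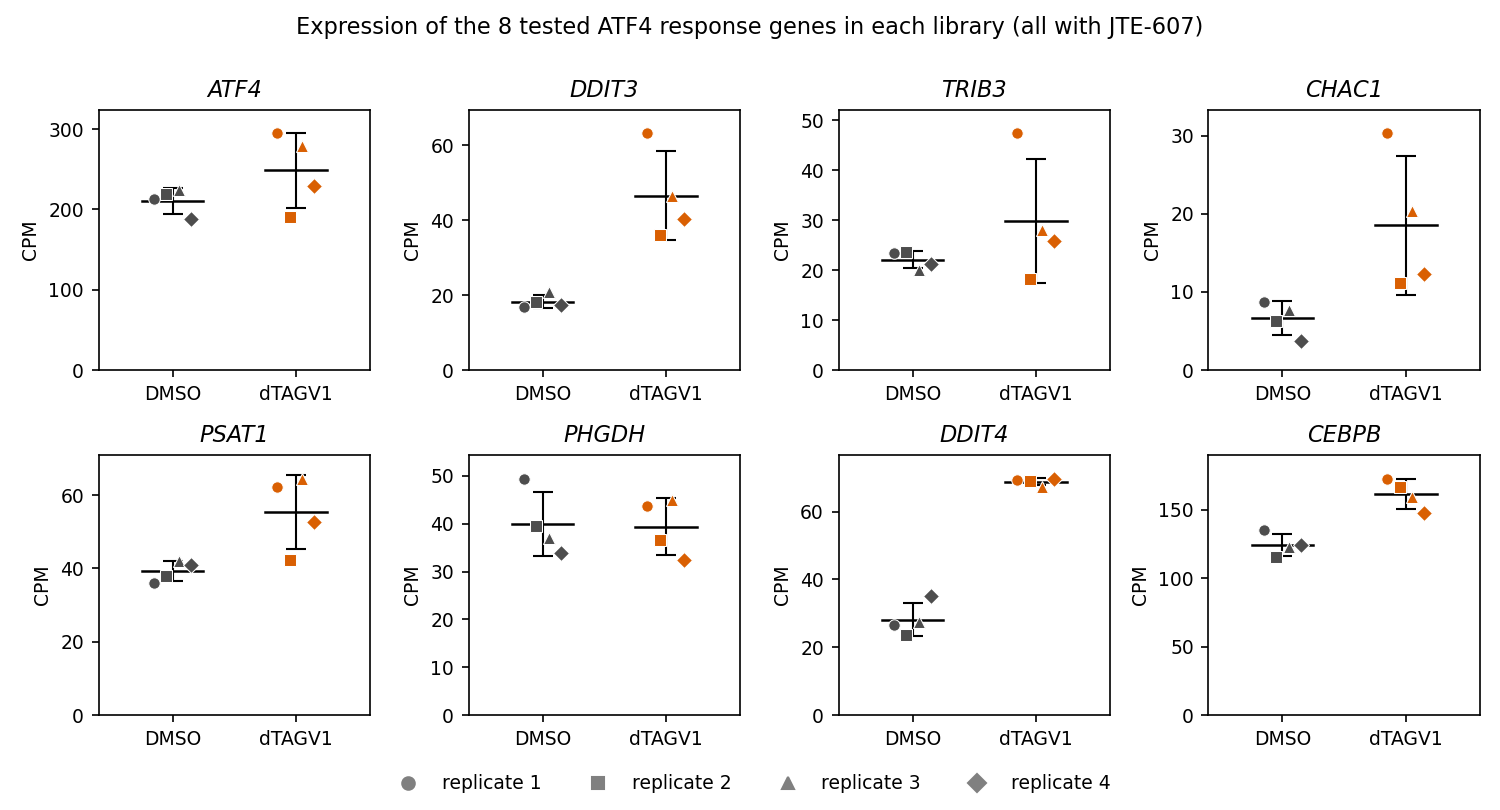
Expression of the 8 tested genes in CPM (vertical axis, from 0) in the 4 DMSO and 4 dTAGV1 libraries, with 1 symbol per replicate number, the group mean as a line and the SD as a bar. DDIT3, CHAC1, DDIT4, PSAT1 and CEBPB separate by group. For ATF4 and TRIB3 dTAGV1 replicate 2, at 191 and 18.1 CPM, lies within or below the DMSO range.

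The 4 dTAGV1 libraries did not stand in 1 order for all genes. Replicate 1 was the highest of its group for 5 of the 8 tested genes, and replicate 2 the lowest for 5, which are ATF4, DDIT3, TRIB3, CHAC1 and PSAT1. Replicate 3 held the highest value of PSAT1 and PHGDH. The median of the 8 genes, as log2 of CPM over the DMSO mean, was 0.88, 0.26, 0.56 and 0.34 in dTAGV1 replicates 1 to 4, and -0.07 to 0.05 in the DMSO libraries. DDIT4 and CEBPB did not share this spread: replicate 2 was at 1.30 for DDIT4 and 0.42 for CEBPB on that scale, close to replicate 1 at 1.30 and 0.47.

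**Figure D3:**
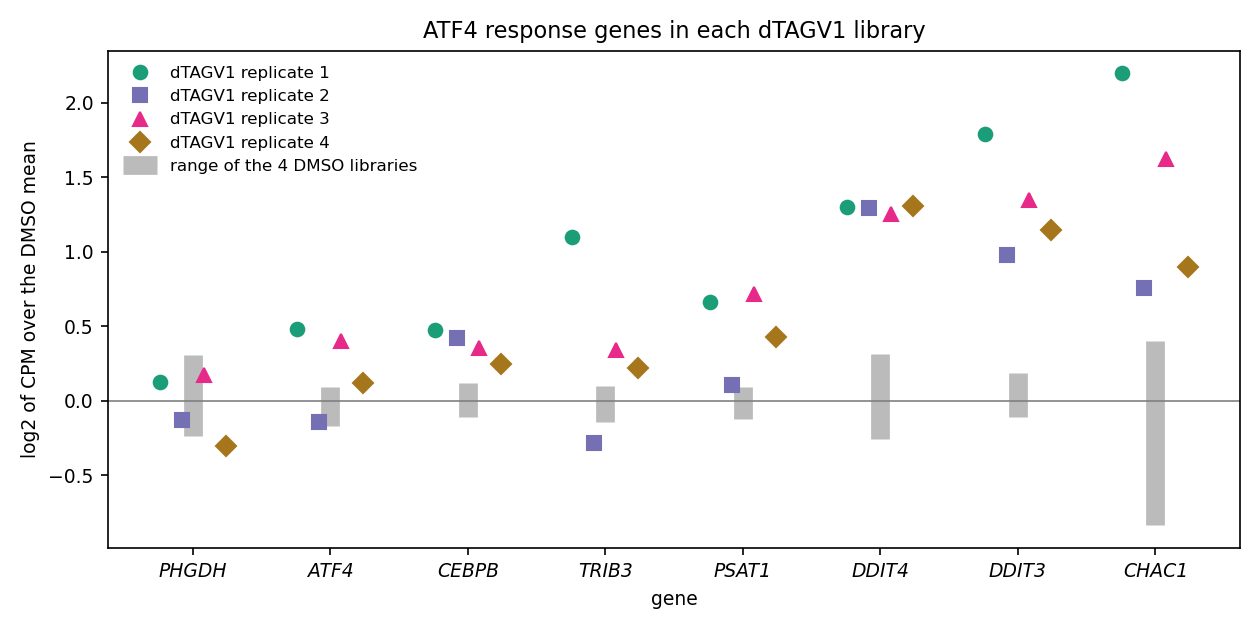
Log2 of CPM over the DMSO mean (vertical axis) for each tested gene in the 4 dTAGV1 libraries, as coloured symbols, and the range of the 4 DMSO libraries, as grey bars. CHAC1 runs from 0.76 in replicate 2 to 2.20 in replicate 1, while DDIT4 stays between 1.25 and 1.31.

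Whether the targets moved more than ATF4 was examined with the log2 ratio of their reads within each library, which does not depend on scaling. This comparison was chosen after the values were seen. The ratio to ATF4 was higher with dTAGV1 by 1.1005 for DDIT3, 1.22 for CHAC1 and 1.09 for DDIT4, without overlap between the groups. In each case the 2-sided exact permutation p was 0.0286, the smallest that 4 against 4 libraries allow, and adjusted over 8 ratios it was 0.0762, above the threshold. The ratio for PSAT1 differed by 0.26, with overlapping groups (exact permutation p = 0.0571, adjusted p = 0.0914). Those for TRIB3, CEBPB and PHGDH differed by 0.13, 0.16 and -0.24, with overlapping groups (exact permutation adjusted p = 0.657, 0.490 and 0.229).

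Over the 8 libraries, the genes most like ATF4 were AP3D1, SNHG5 and MAN2A1. Pearson's r of log2 CPM with ATF4 was 0.98, 0.96 and 0.93, the highest among 9247 named genes averaging 10 CPM or more. This ranking is a description, since the points share libraries and depth.

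Upstream of ATF4, the eIF2 alpha kinases differed in direction. EIF2AK3 encodes PERK, the kinase that senses stress in the endoplasmic reticulum, and it rose from 27.2 ± 1.33 CPM with DMSO to 53.8 ± 6.59 CPM with dTAGV1 (mean ± SD of 4 libraries), or 0.98 in log2 fold change (edgeR adjusted p = 7.38e-08). EIF2AK1 (HRI, the kinase of haem and mitochondrial stress) fell, with a log2 fold change of -0.16 (edgeR adjusted p = 0.0478). EIF2AK2 (PKR, the sensor of double-stranded RNA) fell by 0.20 on the log2 scale (edgeR adjusted p = 0.0220). EIF2AK4 (GCN2, the sensor of uncharged tRNA) was at -0.17 and did not pass (edgeR adjusted p = 0.0702). GCN1, which activates GCN2, fell by 0.51 (edgeR adjusted p = 2.88e-05). Of the 7 kinases and activators listed, 1 rose, 3 fell and 3 did not pass. Across all tested genes 29.4% rose and 28.5% fell, and these shares stand beside each list count below. The 3 decreases became 5 when libraries were scaled by size alone, and 1 without DMSO replicate 3.

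Among 11 genes of eIF2, its exchange factor eIF2B and the phosphatase adaptors, 4 rose, 3 fell and 4 did not pass. All tested genes likewise went both ways, with 29.4% higher and 28.5% lower. EIF2A, an alternative initiation factor that is not a subunit of eIF2, had the largest increase, with a log2 fold change of 0.50. EIF2B1, a regulatory subunit of eIF2B, had the largest decrease at -0.64. PPP1R15A encodes GADD34, the stress-induced adaptor that brings a phosphatase to eIF2 and closes the loop. It rose from 71.4 ± 7.80 CPM with DMSO to 93.1 ± 12.5 CPM with dTAGV1 (mean ± SD of 4 libraries), or 0.38 in log2 fold change (edgeR adjusted p = 0.00251).

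Of 7 other transcription factors of the response, 6 were tested, of which 4 rose and 1 fell. Among all tested genes 29.4% were higher and 28.5% lower. CEBPD, a C/EBP factor of inflammation and stress, rose from 19.7 ± 1.58 CPM with DMSO to 81.3 ± 3.95 CPM with dTAGV1 (mean ± SD of 4 libraries), or 2.04 in log2 fold change (edgeR adjusted p = 7.27e-14). ATF3, which is induced downstream of ATF4 and by other stresses, rose from 51.2 ± 6.67 CPM with DMSO to 138 ± 20.2 CPM with dTAGV1 (mean ± SD of 4 libraries), or 1.43 in log2 fold change (edgeR adjusted p = 6.40e-11). ATF5, the closest relative of ATF4 and likewise under control of upstream open reading frames, fell from 69.96 ± 8.26 CPM with DMSO to 28.5 ± 1.42 CPM with dTAGV1 (mean ± SD of 4 libraries), or -1.29 in log2 fold change (edgeR adjusted p = 3.13e-10). ATF4 and ATF5, of the same family, were thus at 0.24 and -1.29.

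Amino acid transporters mostly did not pass: of 10 listed, 9 were tested, with 1 higher and 2 lower. The shares of all tested genes were 29.4% higher and 28.5% lower. SLC38A2, a transporter of small neutral amino acids, rose with a log2 fold change of 0.84. SLC6A9, a glycine transporter, fell by 2.77 on the log2 scale, from 76 reads in the 4 DMSO libraries to 10 in the 4 dTAGV1 libraries. SLC7A11, the cystine transporter and a frequent marker of ATF4 activity, was named after its value was seen. It was at -0.30 with a 95% confidence interval of -0.62 to 0.02 (edgeR adjusted p = 0.0998). The 2 decreases were 1 with DESeq2 and 0 among genes averaging 100 counts or more, where the low genes were not tested. They were 3 with library-size scaling, with no filter on low counts and with the replicate number as a block.

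Enzymes of amino acid and one-carbon synthesis moved both ways, with 2 higher, 5 lower and 2 not passing among 9 tested of 11. So did all tested genes, with 29.4% higher and 28.5% lower. ALDH18A1, which makes the precursor of proline, rose with a log2 fold change of 0.89. CTH, which makes cysteine from cystathionine, fell by 1.06. The serine branch, singled out after its values were seen because PHGDH and PSAT1 belong to it, was split. PSPH, the last enzyme of serine synthesis, fell by 0.34 (edgeR adjusted p = 0.0202). SHMT2 and MTHFD2, mitochondrial enzymes that pass on the one-carbon unit of serine, fell by 0.87 and 0.89 (edgeR adjusted p = 1.55e-07 and 1.52e-09). MTHFD1L, a one-carbon gene of the same list that was likewise named after its value was seen, rose by 0.52 (edgeR adjusted p = 5.6e-05). PSAT1 alone of the 3 serine synthesis enzymes was higher, and PHGDH did not pass.

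Of 13 genes for cytosolic tRNA synthetases and tRNA export, 7 rose, none fell and 6 did not pass. Beside them, 29.4% of all tested genes were higher and 28.5% lower. The median log2 fold change of the 13 was 0.42. EPRS1 had the largest increase at 0.75 and GARS1 the smallest among those that rose, at 0.36. With scaling by library size alone, or without dTAGV1 replicate 4, 1 of the 13 was lower. Of 14 other reported ATF4 targets, 11 were tested, with 6 higher and 1 lower, beside the same 29.4% and 28.5% of all tested genes. GDF15, a secreted stress cytokine that p53 also induces, had the largest increase, from 801 ± 226 CPM with DMSO to 3098 ± 466 CPM with dTAGV1 (mean ± SD of 4 libraries), or 1.95 in log2 fold change (edgeR adjusted p = 0.000428). NDRG1 fell by 0.84.

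The XBP1 and ATF6 arms are the other branches of the unfolded protein response, which share PERK's trigger but not eIF2. Of 14 genes listed for them, 11 rose, none fell and 3 did not pass, with a median log2 fold change of 0.64. Among all tested genes 29.4% rose and 28.5% fell. SEL1L, a subunit of the ubiquitin ligase that clears misfolded proteins, rose most, from 43.2 ± 1.86 CPM with DMSO to 162 ± 4.14 CPM with dTAGV1 (mean ± SD of 4 libraries), or 1.91. in log2 fold change CRELD2 had the smallest increase among them at 0.40. HSPA5, the chaperone BiP and the usual marker of this branch, rose by 0.70 on the log2 scale, while HERPUD1 and SDF2L1 were at 0.00 and 0.01. HSPA5, HERPUD1 and SDF2L1 were named after their values were seen.

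Paralogs of the 10 genes moved both ways. Of 11 listed, 10 were tested, with 3 higher and 5 lower, beside 29.4% higher and 28.5% lower among all tested genes. SESN1, a sestrin best known as a p53 target, rose with a log2 fold change of 0.97 and CEBPD and CEBPG with 2.04 and 0.36. CEBPA, TRIB1, CHAC2, DDIT4L and ATF5 fell, with log2 fold changes of -1.90, -0.53, -0.70, -1.15 and -1.29. TRIB2 and SESN3 were at 0.13 and 0.14 and did not pass, and CEBPE was at 0 in all libraries. CHAC1 and CHAC2 thus moved in opposite directions, as did DDIT4 and DDIT4L. CHAC2 had only 14 to 46 reads per library, with overlapping groups, and DDIT4L had 8 to 30. The 5 decreases were 3 with counts irrespective of strand and 2 among genes averaging 100 counts or more.

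**Figure D4:**
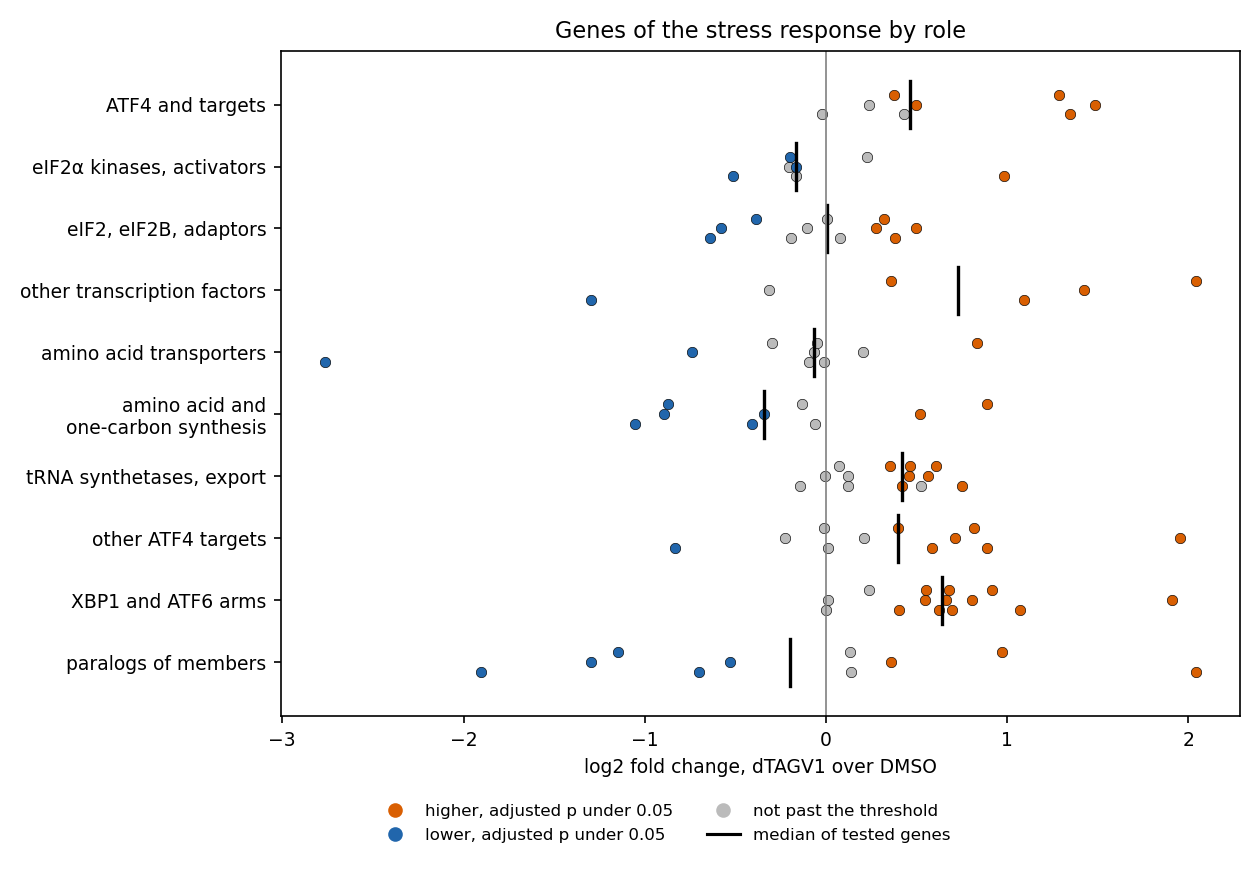
Log2 fold change, dTAGV1 over DMSO (horizontal axis), of each tested gene, in rows by role, with orange for higher and blue for lower at the adjusted p threshold, grey for the rest and a black bar for the median. The rows of the tRNA synthetases and of the XBP1 and ATF6 arms hold no blue points, while amino acid and one-carbon synthesis holds 5.

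Groups that do not overlap are common in these data: dTAGV1 stood above DMSO in CPM for 25.8% of tested genes and below it for 25.1%. The same was true of 5 of the 8 tested genes, all with dTAGV1 above.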

How the data were processed

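The authors deposited 1 table of counts per library, whole numbers of reads per gene in the layout of STAR. Per the labels' protocols, the Lexogen 3′ QuantSeq forward kit was applied to Trizol-extracted RNA. This kit reads transcript ends, so no length correction was applied. FastQC, fastp, STAR, HTSeq, DESeq2 and GRCh38 are named in the submitters' processing notes, without roles. The annotation and any removal of PCR copies are not given in the sources used here. Deposited counts on the strand of the gene were used. The 4 rows that name no gene held 56.7% to 62.8% of reads and stayed out of library sizes. Symbols came from a name table that held 61481 of 78932 identifiers, and loci from GENCODE 29.

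Tests used edgeR 4.0.16 in R 4.3.3 (filterByExpr, TMM, robust quasi-likelihood F test, Benjamini-Hochberg adjustment over all tested genes, threshold 0.05). Standard errors are the log2 fold change over the root of F. edgeR was tested on simulated data. Log2 ratios used exact permutation tests (SciPy 1.17.1). Genes named are the 10, the eIF2 alpha kinases, ATF3, ATF5, PPP1R15A, paralogs, NUDT21, the called genes at either end of each list, and the 3 genes most like ATF4. Others are marked where they appear. The members and lists were chosen with earlier results of these data known. Alternatives were DESeq2 1.42.0, limma-voom (limma 3.58.1), RLE and library-size scaling, other filters, counts irrespective of strand, non-robust dispersions, a replicate block and leaving out each library. Replicate pairs differed by more than sampling noise (chi-square over degrees of freedom 1.89 to 5.63). Intervals of fold changes come from the fit.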

Additional observations from a re-analysis of the deposited data

How the results depend on the processing

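Of 525 alternative values for 31 results of the fits across all genes, 502 held, meaning the same side of the threshold or a count within 1.5 times. A further 5 newly passed, 18 counts moved, and no called value changed sign. PHGDH, never called, ran from -0.1069 to 0.0861. The rises of DDIT3, CHAC1, DDIT4, PSAT1 and CEBPB passed in every alternative in which they were tested, with log2 fold changes of 1.16 to 1.47, 1.13 to 1.64, 1.2032 to 1.41, 0.41 to 0.59 and 0.30 to 0.41. Among genes averaging 100 counts or more, CHAC1 and TRIB3 were not tested, 4120 genes passed, 2131 higher and 1989 lower, and the paralogs and transporters that were lower numbered 2 and 0, since fewer genes were tested. ATF4 and TRIB3 passed with no filter (0.2115 and 0.4055), where the other ATF4 targets had 2 lower. Library-size scaling gave 5 lower kinases or activators and 1 lower tRNA gene, counts irrespective of strand 3 lower paralogs, and DESeq2 1 lower transporter. The cause of these moves was not tested.

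Leaving out each library in turn moved ATF4 from 0.1364 to 0.3275 and TRIB3 from 0.1148 to 0.5854. Lower kinases or activators numbered 1 to 4, lower transporters 1 to 3, higher transporters 1 to 2, and lower genes among the other targets 1 to 2, the other transcription factors 1 to 2 and the tRNA genes 0 to 1. Where the ends of these ranges differ from the main fit, the libraries left out were DMSO replicate 3 (kinases, transporters) and dTAGV1 replicate 1 (transporters, other targets, transcription factors). The others were dTAGV1 replicate 2 (transporters), dTAGV1 replicate 3 (kinases, transporters) and dTAGV1 replicate 4 (tRNA genes). The cause was not tested.

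With the replicate number as a block, 7434 genes passed and ATF4 passed at 0.2218. Deviations of same-numbered libraries correlated at 0.130, -0.0173, 0.0230 and 0.0338, and 3 of 8 libraries correlated best with their own number, so the numbers were not taken to pair them. None of the 8 ratios passed in any of 72 alternative values. The TRIB3 to ATF4 ratio, never called, was -0.0341 without dTAGV1 replicate 1. With 3 against 4 libraries their smallest possible exact p is 0.0571, so those values say nothing about stability. Depth limits CHAC1, at 15 to 107 reads per library. ASNS and SESN2 had too few counts to test. In the annotation used for loci a second gene covers the end of ASNS, but whether this lowered its counts was not tested. The cause of the low SESN2 counts was not tested either.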
